A study of Mus musculus with 12 samples.

Results

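The RNA levels of 10 mouse genes were followed across all groups of the study: Ccdc3, Necab1, Abi3bp, Wnk4, Smpd3, Lrrn4, Tnfrsf11b, Cyp1b1, Kif26b and Dpep1. They were chosen by their CPM values (read counts scaled to a common library total), which differed strongly between fibroblasts given the cardiac factors Mef2c, Gata4 and Tbx5 (MGT) and fibroblasts given a control vector, and none of them encodes a contractile protein. These are 10 of the 23423 genes in the deposited table, and all 10 belong to the 13977 that passed the filter on low values. Of these, 4 were higher with MGT and 6 were lower. The MGT and control libraries selected them, so every difference between those groups is a description here, given without a test.

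MGT names a set of transcription factors whose joint expression can turn fibroblasts into cells with features of heart muscle. Ptbp1 is an RNA-binding protein that represses many splicing events, and a hairpin RNA against it lowers its messenger RNA. The 10 genes act outside the contractile apparatus, as secreted and matrix proteins, enzymes, a calcium binder, a surface protein and a kinesin-family protein.

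Hearts were taken from CD1 mice 1.5 days after birth, and the labels name no engineered allele. Cardiac fibroblasts had been enriched on magnetic columns by the surface protein Thy1, infected in culture the next day and collected after 3 days. Their groups were MGT retrovirus with a lentiviral Ptbp1 hairpin (MGT + shPtbp1), MGT with a non-targeting hairpin (MGT + shNT), MGT alone and a control vector. Titles of the control libraries name lacZ, but their other labels give an empty retroviral vector. The source label of MGT + shPtbp1 replicate 2 names Ptbp2, unlike its title and its transduction label, which placed it in this group. Fresh cardiomyocytes and fresh Thy1-sorted fibroblasts, both uncultured, completed the 6 groups of 2 libraries. The MGT group without a hairpin received no lentivirus, and a control vector with a hairpin is not analysed here. A difference between a hairpin group and MGT alone or the control therefore carries the second virus as well.

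Depth was 49320858 to 94005212 assigned reads per library, and the lowest count for any of the 10 genes was 99 reads. Ptbp1 stood at 81.1 and 78.5 scaled CPM in MGT + shPtbp1, against 360 and 365 in MGT + shNT, a log2 difference of -2.18 (limma, Benjamini-Hochberg adjusted p = 8.25e-19). Scaled CPM are CPM divided by a library factor, and log2 differences are on log2(scaled CPM + 0.5). The replicate scatter over all genes was a root mean square SD of 0.0796 to 0.102 log2 units per group. Summed cardiomyocyte markers (10 of 10 in the table) were 20570 and 19763 scaled CPM in fresh cardiomyocytes, against 2050 and 2111 in fresh fibroblasts. Summed fibroblast markers (10 of 10) were 22338 and 22216 in fresh cardiomyocytes, against 41850 and 40931 in fresh fibroblasts, so both fresh preparations held RNA of both kinds.

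Promoter sequence was at hand for 6 of the 10 genes: Ccdc3, Wnk4, Lrrn4, Cyp1b1, Kif26b and Dpep1. Those of 3 genes are printed here. Ccdc3 differed most with MGT, Wnk4 was higher with MGT and holds a T-box core, and Cyp1b1 was lower with MGT and is a textbook target of the aryl hydrocarbon receptor. Each window runs from 250 bases before to 50 after the RefSeq start on GRCm38.p6 and is read 5′ to 3′ along the gene: Ccdc3 at chr2:5137526-5137825 (plus strand), Wnk4 at chr11:101260317-101260616 (plus strand) and Cyp1b1 at chr17:79715012-79715311 (minus strand). Capitals mark matches, on either strand, to the T-box core GGTGT, which reads ACACC on the other strand, and the xenobiotic response core GCGTG, which reads CACGC on the other strand.
Ccdc3: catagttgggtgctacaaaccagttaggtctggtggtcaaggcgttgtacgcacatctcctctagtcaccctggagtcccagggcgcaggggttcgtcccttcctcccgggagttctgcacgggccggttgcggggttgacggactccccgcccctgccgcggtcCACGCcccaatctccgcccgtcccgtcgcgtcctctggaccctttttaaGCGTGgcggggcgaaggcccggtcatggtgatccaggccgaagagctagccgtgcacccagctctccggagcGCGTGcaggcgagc
Wnk4: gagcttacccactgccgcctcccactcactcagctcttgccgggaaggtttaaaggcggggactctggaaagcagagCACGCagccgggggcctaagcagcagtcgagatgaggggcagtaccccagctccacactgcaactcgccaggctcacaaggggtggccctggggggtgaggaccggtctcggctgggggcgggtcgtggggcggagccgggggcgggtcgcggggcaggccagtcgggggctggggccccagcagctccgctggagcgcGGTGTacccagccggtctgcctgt
Cyp1b1: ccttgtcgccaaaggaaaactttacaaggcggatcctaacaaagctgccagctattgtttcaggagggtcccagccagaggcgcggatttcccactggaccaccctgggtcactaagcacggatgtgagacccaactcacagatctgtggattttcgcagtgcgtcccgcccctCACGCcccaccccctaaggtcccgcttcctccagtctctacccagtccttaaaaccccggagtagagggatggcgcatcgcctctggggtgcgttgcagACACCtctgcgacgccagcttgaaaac

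The Ccdc3 window holds 3 xenobiotic response cores, and the other two hold 1 of these and 1 T-box core each. Over the 6 windows the xenobiotic response core was present in 5, against 32.4% of all 32851 RefSeq windows of this length. The T-box core was present in 2 of 6, against 41.6% of all windows, and both are shown above. The GATA core GATAA was present in 0 of 6, against 25.4% of all windows, and the MEF2 consensus in 0 of 6, against 3.19%. No 2 matches of different motifs overlapped. GC content was 66.3% in the Ccdc3 window, 70.7% in Wnk4 and 58.3% in Cyp1b1, with 68.3% in Kif26b, 58% in Lrrn4 and 52.7% in Dpep1. The median over all windows was also 52.7%. These are letters found in short windows and say nothing of binding.

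In order of the difference between MGT and control, among the 9552 genes whose higher group reached 10 scaled CPM, the genes higher with MGT took ranks 2, 3, 4 and 6. Col10a1 was first at 2.54 log2 units and Kcnc4 came at rank 5 with 1.82, and neither is among the 10. Wnk4 was the last inside at 1.71, and the next gene down was Corin at 1.62. The genes lower with MGT took ranks 1 to 6. Dpep1 was the last inside at -1.02, and the next was Pkhd1l1 at -0.99.

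**Figure D1:**
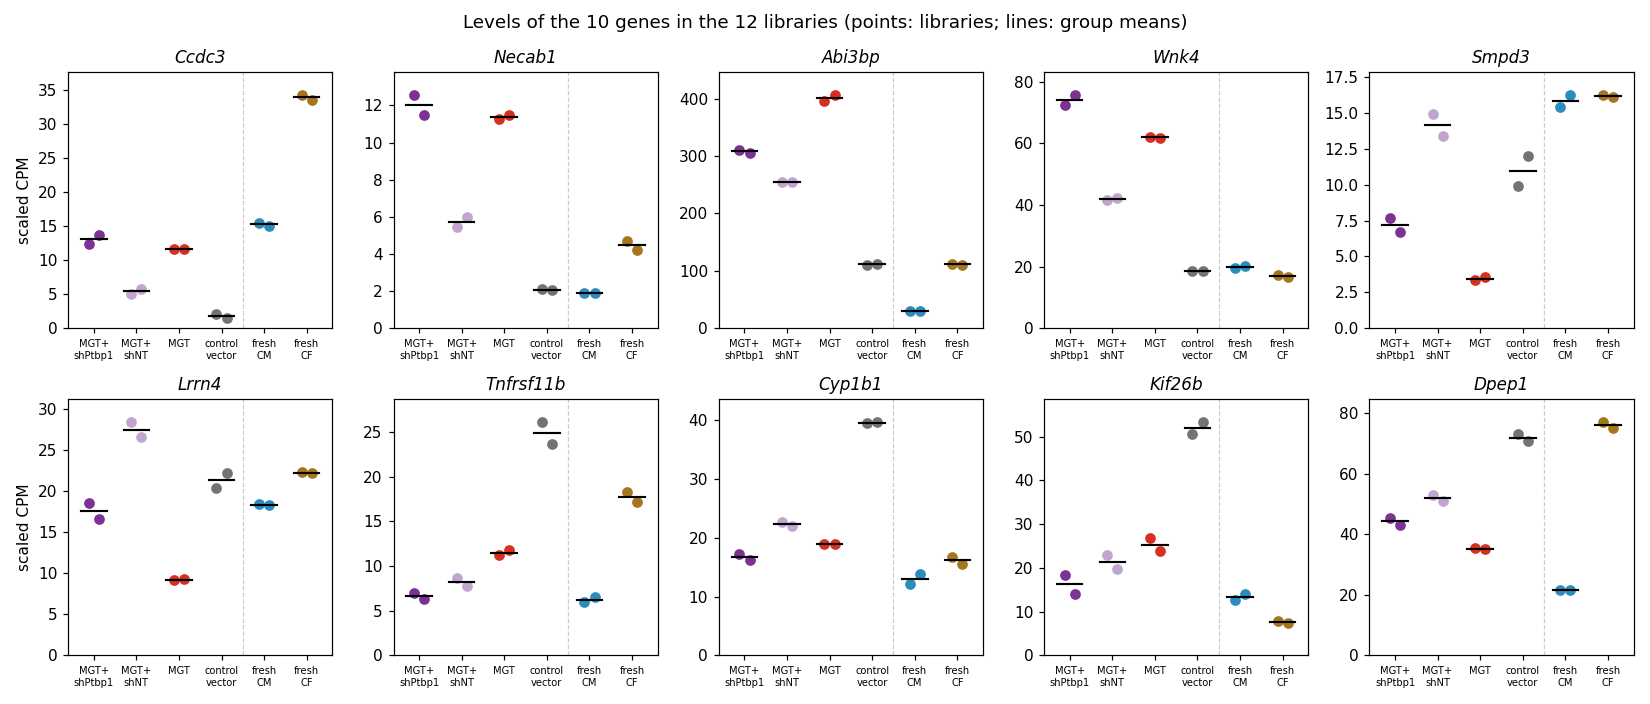
Level of each gene in scaled CPM (vertical axes, starting at 0) in the 12 libraries. Points are libraries, lines are group means, and a dashed line separates day 3 cultures from fresh cells. Ccdc3, Necab1, Abi3bp and Wnk4 sit above the control vector in all 3 MGT groups, whereas Smpd3 and Lrrn4 sit below it with MGT and MGT + shPtbp1 but above it with MGT + shNT.

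The genes higher with MGT stayed above both control libraries in both hairpin groups, at a lower level with MGT + shNT than with MGT + shPtbp1. Ccdc3 encodes a secreted glycoprotein first described in endothelial and fat cells (chr2:5137776-5230878, plus strand, GRCm38). It had 12.3 and 13.8 scaled CPM in MGT + shPtbp1, 5.02 and 5.79 in MGT + shNT and 11.7 and 11.6 in MGT, against 2.09 and 1.51 in the control. No day 3 group overlapped another for this gene, and the control was lowest. The log2 difference from the control was 2.57 for MGT + shPtbp1, 1.37 for MGT + shNT and 2.41 for MGT (SE 0.101 each), the last a 6.46-fold difference in level.

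Necab1 encodes a neuronal protein with an EF-hand calcium-binding site (chr4:14952245-15149794, minus strand). It had 12.6 and 11.5 scaled CPM in MGT + shPtbp1, 5.46 and 6.01 in MGT + shNT and 11.3 and 11.5 in MGT, against 2.09 and 2.03 in the control. The order matched that of Ccdc3, with MGT + shPtbp1 and MGT close together and MGT + shNT between them and the control. On the log2 scale the difference from the control was 2.29 for MGT + shPtbp1, 1.28 for MGT + shNT and 2.21 for MGT (SE 0.0940 each). An antisense gene, Gm11837, covers 410 of the 5237 exonic bases of Necab1, and the strand setting of the counting is not given in the sources used here. Gm11837 itself averaged 0.219 to 0.335 scaled CPM in the day 3 groups.

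Abi3bp encodes an extracellular matrix protein that binds the adaptor ABI3 and integrins (chr16:56477878-56690135, plus strand). It had 311 and 306 scaled CPM in MGT + shPtbp1, 255 and 254 in MGT + shNT and 396 and 406 in MGT, against 111 and 112 in the control. Here MGT alone was highest, and both hairpin groups lay between MGT and the control without overlap. Relative to the control the log2 difference was 1.46 for MGT + shPtbp1, 1.19 for MGT + shNT and 1.84 for MGT (SE 0.0323 each). Per kilobase of exon Abi3bp was the most abundant of the 10 in MGT cells, at 54.1 scaled CPM per kb. The others ranged down to 0.659 for Smpd3.

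Wnk4 encodes a kinase that controls sodium and chloride cotransport in the kidney through the kinases STK39 and OXSR1 (chr11:101260567-101277409, plus strand). It had 72.4 and 75.6 scaled CPM in MGT + shPtbp1, 41.5 and 42.2 in MGT + shNT and 62.0 and 61.7 in MGT, against 18.5 and 18.6 in the control. The 4 groups did not overlap, and the Ptbp1 hairpin group was highest. The log2 difference from the control was 1.97 for MGT + shPtbp1, 1.15 for MGT + shNT and 1.71 for MGT (SE 0.0466 each).

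The genes lower with MGT split in the hairpin groups. Smpd3 encodes neutral sphingomyelinase 2, a membrane enzyme that makes ceramide from sphingomyelin (chr8:106252548-106337988, minus strand). It had 7.67 and 6.74 scaled CPM in MGT + shPtbp1, 14.9 and 13.4 in MGT + shNT and 3.34 and 3.56 in MGT, against 9.94 and 11.97 in the control. Both MGT + shNT libraries were above both control libraries, whereas MGT and MGT + shPtbp1 were below them. On the log2 scale the difference from the control was -0.57 for MGT + shPtbp1, 0.36 for MGT + shNT and -1.53 for MGT (SE 0.0923 each). Smpd3 shares 247 of its 5232 exonic bases with Prmt7 on the other strand. Prmt7 is an arginine methyltransferase gene. It averaged 16.9 scaled CPM in MGT + shPtbp1, 17.3 in MGT + shNT and 16.1 in MGT, against 23.8 in the control. Its means in the MGT groups had the order of Smpd3 over a narrower range, but the control was highest for Prmt7. The part of Prmt7 reads in the Smpd3 values was not tested.

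Lrrn4 encodes a leucine-rich repeat surface protein known as a marker of mesothelial cells (chr2:132868305-132880891, minus strand). It had 18.5 and 16.5 scaled CPM in MGT + shPtbp1, 28.3 and 26.5 in MGT + shNT and 9.11 and 9.26 in MGT, against 20.3 and 22.2 in the control. The order was that of Smpd3, and Pearson's r between the log2 levels of these genes was 0.993 over the 8 day 3 libraries, 4 of which selected both genes, and 0.879 over all 12. Relative to the control the log2 difference was -0.28 for MGT + shPtbp1, 0.36 for MGT + shNT and -1.17 for MGT (SE 0.0664 each). Mesothelial and epicardial markers did not move together. Upk3b, named after its values were seen, was the 1 of the 9 listed markers in the table with both MGT + shNT libraries above, and both MGT libraries below, both control libraries. It had 29.9 and 30.2 scaled CPM in MGT + shPtbp1, 38.2 and 38.3 in MGT + shNT and 20.7 and 20.6 in MGT, against 30.2 and 28.9 in the control. Upk1b, another uroplakin gene of mesothelium, had 61.8 and 60.8 in MGT + shPtbp1, 47.5 and 48.5 in MGT + shNT and 49.2 and 50.6 in MGT, against 36.2 and 36.3 in the control, an order unlike that of Lrrn4. The summed mesothelial and epicardial markers (9 of 10 in the table, none at 0) were 359 and 345 in MGT + shPtbp1, 338 and 335 in MGT + shNT and 337 and 342 in MGT, against 363 and 361 in the control. The part of mesothelial cells in the Lrrn4 values was not tested, and in bulk RNA fewer cells of a type and less RNA per cell cannot be told apart.

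Tnfrsf11b encodes osteoprotegerin, a secreted decoy receptor for the cytokine RANKL (chr15:54250619-54278484, minus strand). It had 7.04 and 6.29 scaled CPM in MGT + shPtbp1, 8.71 and 7.76 in MGT + shNT and 11.2 and 11.7 in MGT, against 26.1 and 23.7 in the control. Both hairpin groups lay below MGT alone. The log2 difference from the control was -1.82 for MGT + shPtbp1, -1.54 for MGT + shNT and -1.08 for MGT (SE 0.0845 each).

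Kif26b encodes a kinesin-family protein whose abundance is lowered by WNT5A-ROR signalling (chr1:178529125-178939200, plus strand). It had 18.3 and 14.1 scaled CPM in MGT + shPtbp1, 22.9 and 19.8 in MGT + shNT and 26.8 and 23.9 in MGT, against 50.6 and 53.2 in the control. As for Tnfrsf11b, the hairpin groups were the lowest of the day 3 groups. On the log2 scale the difference from the control was -1.66 for MGT + shPtbp1, -1.27 for MGT + shNT and -1.02 for MGT (SE 0.0961 each).

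Cyp1b1 encodes a cytochrome P450 that oxidises steroids and aromatic hydrocarbons (chr17:79701537-79715061, minus strand). It had 17.3 and 16.2 scaled CPM in MGT + shPtbp1, 22.8 and 21.9 in MGT + shNT and 18.9 and 19.0 in MGT, against 39.6 in both control libraries. All 3 MGT groups lay far below the control and close to each other. Relative to the control the log2 difference was -1.22 for MGT + shPtbp1, -0.81 for MGT + shNT and -1.04 for MGT (SE 0.0660 each).

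Dpep1 encodes a membrane dipeptidase that cleaves cysteinyl-glycine and leukotriene D4 (chr8:123186242-123201812, plus strand). It had 45.4 and 43.2 scaled CPM in MGT + shPtbp1, 52.8 and 50.9 in MGT + shNT and 35.4 and 35.1 in MGT, against 73.0 and 70.6 in the control. MGT alone was lowest and the hairpin groups lay between it and the control. The log2 difference from the control was -0.69 for MGT + shPtbp1, -0.47 for MGT + shNT and -1.02 for MGT (SE 0.0427 each).

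**Figure D2:**
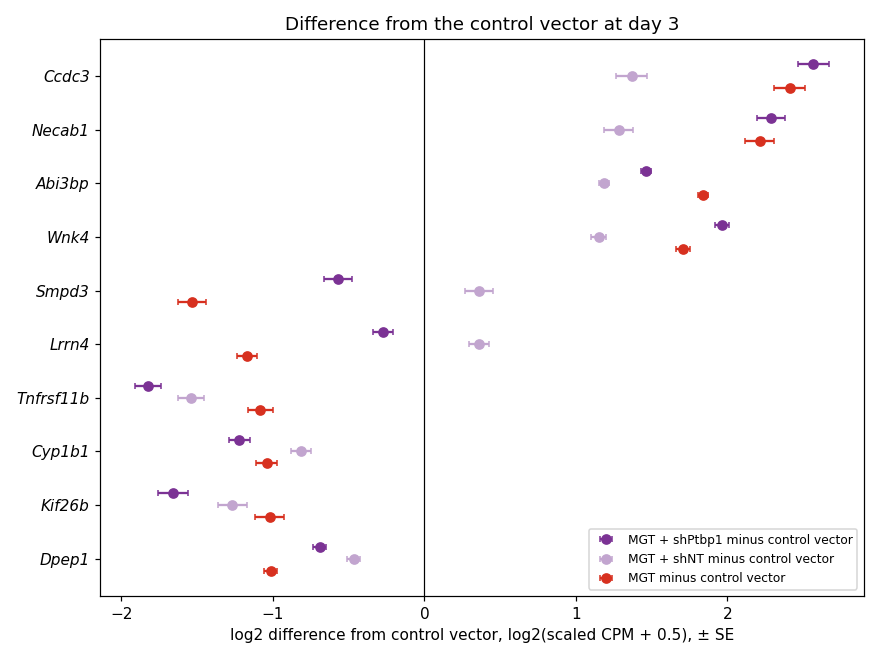
Log2 difference from the control vector at day 3 on log2(scaled CPM + 0.5), horizontal axis, for each gene and each MGT group. Points are differences of group means, bars are the SE from the fit, and the control libraries are shared by all 3 sets of points. The MGT + shNT points of Smpd3 and Lrrn4 lie at 0.36 to the right of zero, while their MGT points lie at -1.53 and -1.17.

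Counted by library, both MGT + shPtbp1 libraries were above both control libraries for 4 of the 4 genes higher with MGT, where 39.4% of all tested genes were above, and below them for 6 of the 6 lower with MGT, where 36.1% were below. For MGT + shNT the counts were 4 of 4 above, beside 40.6% of all genes, and 4 of 6 below, beside 35.9%. The exceptions were Smpd3 and Lrrn4, which were above. For MGT itself, the contrast that selected the genes, the counts were 4 of 4 and 6 of 6 beside 32.3% and 34% of all genes, and nothing is read from them. These comparisons share the control libraries, so the counts are not independent of the selection or of each other.

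The genes higher with MGT had a median log2 difference from the control of 2.13 with MGT + shPtbp1, 1.23 with MGT + shNT and 2.03 with MGT alone. For the genes lower with MGT the medians were -0.96, -0.64 and -1.06 in the same order of groups. The delivered factors also differed. Mef2c RNA averaged 529 scaled CPM in MGT + shPtbp1, 473 in MGT + shNT and 741 in MGT, against 322 in the control. Tbx5 RNA averaged 1697, 1551 and 1809 scaled CPM in those MGT groups, against 661 in the control, and Gata4 averaged 652, 635 and 692, against 358. The control cultures themselves stood far above fresh fibroblasts for Tbx5, at 645 and 678 scaled CPM in the control, against 6.94 and 7.52 in fresh fibroblasts, and the part of this in the differences from the control was not tested. Summed macrophage markers (8 of 9 in the table, none at 0) were 1462 and 1510 scaled CPM in MGT + shPtbp1, 1284 and 1340 in MGT + shNT and 3744 and 3643 in MGT, against 3703 and 3469 in the control. Against MGT alone, Mef2c RNA differed by -0.49 log2 units in MGT + shPtbp1 and -0.65 in MGT + shNT. Tbx5 differed by -0.09 and -0.22 in those groups, and Gata4 by -0.09 and -0.12. The hairpin groups thus stood apart from MGT alone in macrophage markers and, among the factors, most in Mef2c RNA. The part of factor RNA or of macrophages in the levels of the 10 genes was not tested.

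The comparison that leaves the selecting libraries aside is MGT + shPtbp1 against MGT + shNT, which asks how silencing Ptbp1 during MGT treatment alters these genes. All 10 changed. Ccdc3, Necab1, Wnk4 and Abi3bp rose with the Ptbp1 hairpin, and Smpd3, Lrrn4, Cyp1b1, Kif26b, Tnfrsf11b and Dpep1 fell, so each moved the way it differed between MGT and the control. The tests were limma on all 12 libraries, two-sided, with Benjamini-Hochberg adjustment over 13977 genes and a threshold of 0.05. Over all tested genes 16.7% rose and 18.1% fell in this comparison, against 4 of 4 and 6 of 6 here, and the median log2 difference was 0.91 for the genes higher with MGT and -0.40 for those lower, beside -0.00 over all genes.

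Ccdc3 averaged 13.1 ± 1.01 scaled CPM in MGT + shPtbp1 and 5.40 ± 0.546 in MGT + shNT (SD, n = 2 each), a log2 difference of 1.20 with SE 0.101 (limma adjusted p = 3.82e-08). Necab1 averaged 12.02 ± 0.761 in MGT + shPtbp1 and 5.73 ± 0.386 in MGT + shNT, a difference of 1.01 with SE 0.0940 (limma adjusted p = 1.39e-07). In level, Ccdc3 was 2.42-fold and Necab1 2.1-fold higher with the Ptbp1 hairpin. Wnk4 averaged 74.0 ± 2.23 in MGT + shPtbp1 and 41.8 ± 0.491 in MGT + shNT, 1.77-fold higher (log2 0.82, limma adjusted p = 2.18e-10). Abi3bp rose least, by 1.21-fold (log2 0.28, limma adjusted p = 2.11e-06).

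Smpd3 averaged 7.21 ± 0.660 scaled CPM in MGT + shPtbp1 and 14.2 ± 1.12 in MGT + shNT, 1.96-fold lower (log2 -0.93, SE 0.0923, limma adjusted p = 3.12e-07). Lrrn4 averaged 17.5 ± 1.39 in MGT + shPtbp1 and 27.4 ± 1.26 in MGT + shNT, 1.57-fold lower (log2 -0.63, limma adjusted p = 5.74e-07). Even so, both genes stayed above their MGT levels in each MGT + shPtbp1 library. Cyp1b1 fell by 0.41 log2 units (limma adjusted p = 8.70e-05) and Dpep1 by 0.23 (limma adjusted p = 0.000429). Kif26b averaged 16.2 ± 2.97 in MGT + shPtbp1 and 21.3 ± 2.18 in MGT + shNT, 0.39 log2 units lower (limma adjusted p = 0.00378). Tnfrsf11b averaged 6.67 ± 0.528 and 8.23 ± 0.672 in those groups, 0.29 log2 units lower (limma adjusted p = 0.0133).

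Kif26b and Tnfrsf11b were the least firm. Without MGT + shPtbp1 replicate 2, the limma adjusted p was 0.102 for Kif26b and 0.130 for Tnfrsf11b, with log2 differences of -0.21 each. Without MGT + shNT replicate 1, it was 0.0704 for Kif26b and 0.156 for Tnfrsf11b, with log2 differences of -0.29 and -0.21. Over all 17 alternatives the adjusted p ran from 9.41e-05 to 0.102 for Kif26b and from 0.00878 to 0.156 for Tnfrsf11b. Both fits assume that the lone library left in a group varies like the other groups.

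**Figure D3:**
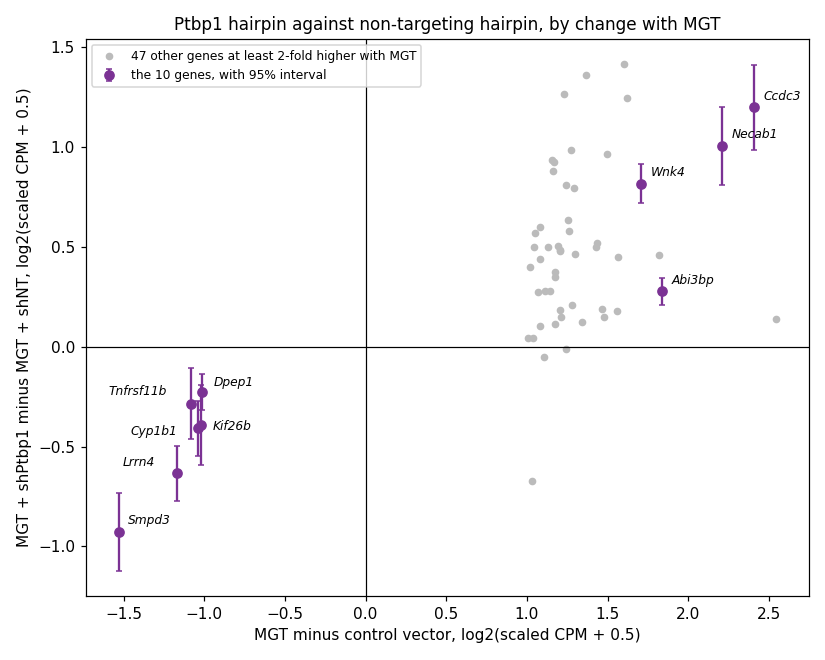
Horizontal axis, log2 difference of MGT from the control vector, which selected the named genes; vertical axis, log2 difference of MGT + shPtbp1 from MGT + shNT in other libraries. Purple points are the 10 genes with 95% intervals from the fit. Grey points are the 47 other genes at least 2-fold higher with MGT at a limma adjusted p below 0.05. The 4 genes higher with MGT lie above zero and the 6 lower ones below it, and no interval crosses zero.

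The direction was shared by other genes with a large MGT difference. The 47 other genes were at least 2-fold higher with MGT, at a limma adjusted p below 0.05, and reached 10 scaled CPM, leaving out the factors. That threshold served only to pick the set. With the Ptbp1 hairpin 35 of the 47 rose and 1 fell, with a median of 0.46 log2 units. No other gene with that level was at least 2-fold lower with MGT. Of the delivered factors, Mef2c rose by 0.16 log2 units (limma adjusted p = 0.00344), Tbx5 differed by 0.13 (limma adjusted p = 0.0521) and Gata4 by 0.04 (limma adjusted p = 0.517). Over all tested genes 16.7% rose and 18.1% fell. Cardiomyocyte markers rose for 7 of 10 and fell for 0, and macrophage markers rose for 1 of 8 and fell for 6. The summed macrophage markers were nevertheless higher in MGT + shPtbp1, at 1462 and 1510 scaled CPM, against 1284 and 1340 in MGT + shNT. Of the mesothelial and epicardial markers 3 of 9 rose, Upk1b by 0.35 log2 units, Aldh1a2 by 0.11 and Tbx18 by 0.10, and 4 fell, Krt8 by 0.48, Krt19 by 0.47, Krt18 by 0.40 and Upk3b by 0.34. The part of Mef2c RNA or of other cell types in the changes of the 10 genes was not tested.

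Fresh cardiomyocytes against fresh fibroblasts, also free of the selecting libraries, asks whether these genes separate the fresh preparations. The preparations also differed in other cell types. Summed endothelial markers (9 of 9 in the table) were 4302 and 4293 scaled CPM in cardiomyocytes, against 3322 and 3377 in fibroblasts. Summed macrophage markers (8 of 9) were 680 and 672, against 994 and 991. Summed smooth muscle and pericyte markers (7 of 7) were 634 and 631, against 1290 and 1308. The part of such cells in the differences below was not tested. Of the 4 genes higher with MGT, 1 was higher in fresh cardiomyocytes and 3 were lower, beside 35.2% and 41.7% of all tested genes. Wnk4 was the higher gene, at 19.6 and 20.2 scaled CPM in cardiomyocytes, against 17.2 and 16.6 in fibroblasts (log2 0.23, limma adjusted p = 0.000217). Its level in the MGT groups, 41.5 and above, exceeded both fresh preparations. Abi3bp had 29.5 and 29.6 in cardiomyocytes, against 112 and 110.3 in fibroblasts (log2 -1.89, limma adjusted p = 1.49e-19). Ccdc3 had 15.5 and 15.1 in cardiomyocytes, against 34.2 and 33.6 in fibroblasts (log2 -1.12, limma adjusted p = 7.17e-09). Necab1 was low in both, at 1.92 and 1.88 in cardiomyocytes, against 4.71 and 4.24 in fibroblasts (log2 -1.05, limma adjusted p = 6.76e-09). The 4 genes thus did not share a direction between the fresh preparations.

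Of the 6 genes lower with MGT, 4 were lower in fresh cardiomyocytes, beside 41.7% of all tested genes, 1 was higher, beside 35.2%, and 1 did not pass the test. Dpep1 had 21.5 and 21.6 scaled CPM in cardiomyocytes, against 76.9 and 74.97 in fibroblasts (log2 -1.79, limma adjusted p = 1.69e-17). Tnfrsf11b had 5.94 and 6.52 in cardiomyocytes, against 18.3 and 17.1 in fibroblasts (log2 -1.44, limma adjusted p = 1.38e-11). Cyp1b1 and Lrrn4 were lower by smaller amounts, with log2 differences of -0.31 (limma adjusted p = 0.000328) and -0.27 (limma adjusted p = 0.00108). Of these genes Dpep1 and Tnfrsf11b differed most between the fresh preparations. Kif26b was higher, at 12.7 and 14.0 in cardiomyocytes, against 7.86 and 7.37 in fibroblasts (log2 0.77, limma adjusted p = 6.40e-07). Smpd3 had 15.4 and 16.2 in cardiomyocytes, against 16.2 and 16.1 in fibroblasts, with a log2 difference of -0.03 and a 95% interval of -0.22 to 0.17 (limma adjusted p = 0.788). Among the same 47 other genes, picked above by their MGT difference, 25 were higher and 14 lower in fresh cardiomyocytes.

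Some of these genes differed more between the day 3 control and fresh fibroblasts than between MGT and the control. This is a description, since the control libraries took part in the selection, and time in culture, infection and cell makeup cannot be told apart in it. Summed endothelial markers (9 of 9 in the table, none at 0) were 126 and 131 scaled CPM in the control, against 3322 and 3377 in fresh fibroblasts, and summed smooth muscle and pericyte markers (7 of 7, none at 0) were 724 and 771, against 1290 and 1308. Summed fibroblast markers were 20748 and 22910 in the control, against 41850 and 40931 in fresh fibroblasts. Summed macrophage markers went the other way, at 3703 and 3469 in the control, against 994 and 991. The part of any of these cells in the levels of the 10 genes was not tested. Ccdc3 was 18.8-fold lower in the day 3 control than in fresh fibroblasts, so that its MGT level of 11.6 stayed below the fresh level of 33.9. Kif26b was 6.82-fold higher in the control than in fresh fibroblasts, and its MGT level of 25.4 was still above the fresh level of 7.61. Cyp1b1 was 1.27 log2 units higher in the control, and Tnfrsf11b 0.48. Abi3bp, Dpep1 and Lrrn4 differed by 0.01, -0.08 and -0.06 log2 units, and for Abi3bp and Lrrn4 the libraries of these groups overlapped. Over the 6 groups Wnk4 and Necab1 were highest in MGT + shPtbp1, Abi3bp in MGT, Lrrn4 in MGT + shNT, Tnfrsf11b, Cyp1b1 and Kif26b in the control, and Ccdc3 and Dpep1 in fresh fibroblasts. Smpd3 was highest in the fresh preparations, which overlapped.

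**Figure D4:**
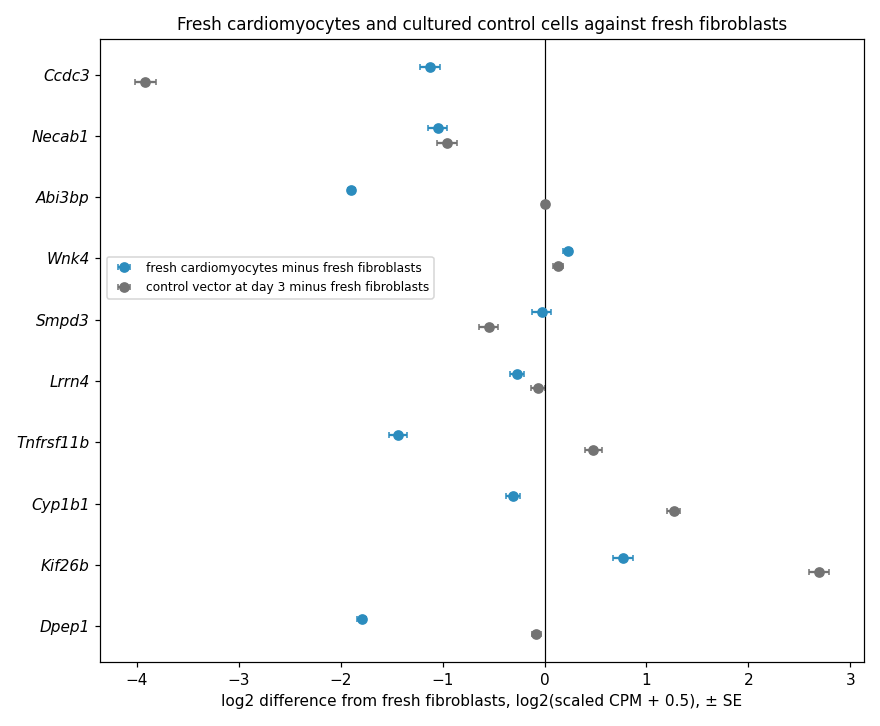
Log2 difference from fresh fibroblasts on log2(scaled CPM + 0.5), horizontal axis, for fresh cardiomyocytes (blue, tested) and day 3 control vector cultures (grey, a description). Points are differences of group means and bars are the SE from the fit. Ccdc3 lies at -3.91 and Kif26b at 2.69 in the control cultures, far from their values in fresh cardiomyocytes, -1.12 and 0.77.

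Partners of the 10 genes, from 10 lists by function, changed between MGT + shPtbp1 and MGT + shNT at rates near those of all genes. Over the lists 14 of 88 tested genes outside the 10 rose (15.9%) and 19 fell (21.6%), beside 16.7% and 18.1% of all genes. Of 20 tested genes of sphingomyelin and ceramide metabolism outside the 10, 2 rose and 3 fell. Sgms2, a sphingomyelin synthase that works in the reverse direction to Smpd3, rose most: it had 20.1 and 20.3 scaled CPM in MGT + shPtbp1, against 9.61 and 9.76 in MGT + shNT (log2 1.02, limma adjusted p = 2.63e-10). In MGT it had 25.6 and 25.1, against 21.7 and 23.7 in the control, so MGT + shNT was low for Sgms2 and high for Smpd3. Of 8 genes of the aryl hydrocarbon receptor axis, which induces Cyp1b1, 1 rose and 4 fell. The receptor gene Ahr had 1.65 and 1.49 in MGT + shPtbp1, against 2.91 and 3.35 in MGT + shNT (log2 -0.81, limma adjusted p = 5.39e-06).

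Of 14 genes of the WNK pathway 2 rose and 3 fell, led by the kinase Wnk3 at -0.57 log2 units. Of 14 genes of the WNT5A-ROR axis 4 rose and 2 fell, led by the receptor Fzd7 at 0.39. Of 12 genes of dipeptide, glutathione and leukotriene metabolism 1 rose and 4 fell, led by Alox5ap at -0.33 and Lta4h at -0.25, both genes of leukotriene synthesis. Of 5 genes around osteoprotegerin 0 rose and 2 fell, the TRAIL receptor gene Tnfrsf10b by 0.43. The RANK gene Tnfrsf11a, which osteoprotegerin opposes, was named after its values were seen. It had 2.69 and 2.58 scaled CPM in MGT + shPtbp1 and 3.07 and 3.15 in MGT + shNT. In MGT it had 9.42 and 8.51, against 8.81 and 10.7 in the control. Summed macrophage markers were also lower in both hairpin groups than in MGT or the control. The part of such cells in the Tnfrsf11a values, or in the change of Alox5ap, was not tested. Of 5 secreted genes listed beside Ccdc3 2 rose, Angptl4 by 0.62 and C1qtnf1 by 0.51, and 1 fell. Of 4 genes listed with Lrrn4 and 3 with Necab1, 1 each rose, and of 3 ABI genes listed with Abi3bp 0 rose and 0 fell.

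Between fresh cardiomyocytes and fresh fibroblasts, where 35.2% of all tested genes were higher and 41.7% lower, most genes of these lists were called, as were most genes overall. In the WNT5A-ROR axis 3 of 14 were higher in cardiomyocytes and 10 lower. Among the lower were the receptor Ror2 at -0.97 and Wnt5a itself at -0.73 log2 units. Kif26b RNA was higher, but the regulation named above concerns the KIF26B protein, and only RNA was followed here. In the WNK pathway 6 of 14 were higher and 7 lower, with Stk39, the kinase that Wnk4 activates, at 0.86. In the aryl hydrocarbon receptor axis 3 of 8 were higher and 3 lower, with Tiparp, another target gene of the receptor, at 1.32. Of the sphingomyelin and ceramide genes 9 of 20 were higher and 7 lower, and of the dipeptide, glutathione and leukotriene genes 4 of 12 were higher and 6 lower.

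The genes with the most similar pattern over the 12 libraries were found by Pearson's r of log2 levels among 10483 genes, as a description with no test, since the libraries fall into groups. For Wnk4 they were Vim (r = 0.992) and Epb4.1 (0.989), for Dpep1 Kirrel (0.988) and Ptk7 (0.982), and for Abi3bp Adamtsl1 (0.985) and Mansc1 (0.982). For Kif26b they were Pwp1 (0.983) and Ttc27 (0.978), for Cyp1b1 Fam101b (0.975) and Rpa1 (0.962), and for Tnfrsf11b Acaca (0.974) and Sbno2 (0.960). Ccdc3 was closest to Serpinb1a (0.973) and Nedd4l (0.971), and Necab1 to Lrp4 (0.959) and Antxr2 (0.953). Smpd3 and Lrrn4 had the loosest matches, Lmo4 (0.936) and Gpsm1 (0.930) for Smpd3 and Krt7 (0.923) and Atg16l2 (0.869) for Lrrn4. Krt7 is a keratin gene of simple epithelia. It had 7.45 and 7.36 scaled CPM in MGT + shPtbp1 and 13.0 and 12.8 in MGT + shNT. In MGT it had 5.53 and 6.27, against 9.72 and 9.68 in the control. This is the order of Lrrn4 and Smpd3, but likeness to Lrrn4 picked Krt7, so the shared order adds no support.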

How the data were processed

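The 12 libraries hold polyadenylated RNA read with a stranded kit, per the labels' protocols. The authors deposited CPM, 1 column per library, for 23423 genes. The submitters' processing notes list FastQC, TopHat2 2.1.0, HTSeq 0.6.1p1 and the mm10 build. Neither the annotation nor the strand setting used in counting is given in the sources used here, so reads of genes that overlap on opposite strands may be mixed. The deposited CPM gave back whole reads within 0.1 read for 100% of values, and depth comes from these. Gene names had become numbers in 27 rows, which stayed in the tests unnamed.

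Each library's CPM was scaled by a median-of-ratios factor (0.966 to 1.06), and the filter required 1 CPM in 2 libraries. The fit of log2(scaled CPM + 0.5) used limma 3.58.1 (R 4.3.3) with trend, 1 mean per group and 6 residual degrees of freedom, with Benjamini-Hochberg adjustment within each comparison. The pseudocount makes log2 differences of low genes smaller than their ratios. With 2 libraries per group an exact permutation test could reach no less than p = 0.333, so none was run. The labels do not say that replicates were separate animals or cultures. The p-values therefore measure only the spread between these samples, which may be technical.

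The 10 genes and the lists were chosen with earlier results of these data known. Named besides the 10 were up to 4 changed genes per list, the 2 genes most alike to each of the 10 and their neighbours in rank. Some genes that this rule names are not reported here. The levels of Upk3b, Upk1b, Krt7 and Tnfrsf11a were added after their values were seen. Positions are from GENCODE annotation of GRCm38, the mm10 build, 1-based, and promoters from RefSeq. The procedure was also run on simulated reads, drawn independently with the spread estimated from these libraries. That run cannot show whether the 2 libraries of a group were separate animals or cultures. Alternatives included edgeR 4.0.16 and DESeq2 1.42.0 on the recovered reads. Figures used matplotlib 3.10.9.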

Additional observations from a re-analysis of the deposited data

Results flagged for a closer look

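Smpd3 and Lrrn4 stood apart because the MGT groups lay on opposite sides of the control vector. Smpd3 was 0.36 log2 units above the control in MGT + shNT, with both libraries above both control libraries, and at -1.53 in MGT. Lrrn4 was 0.36 log2 units above the control in MGT + shNT and at -1.17 in MGT, again without overlap. The difference was not tested, since the MGT and control libraries selected the genes, and the second virus of the hairpin group cannot be told apart from other differences between those cultures.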

How the results depend on the processing

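Counts of genes and of the 10 members stayed within 1.5 times their value under every alternative run: no further scaling, upper-quartile and TMM scaling, pseudocounts of 0.1 and 2, no filter or 5 CPM, fits of 4 or 8 libraries, a robust prior, edgeR, DESeq2, the replicate block and each replicate left out. MGT + shPtbp1 against MGT + shNT called 4870 genes, and 3348 to 4936 under the alternatives; the 10 members gave 8 to 10 calls, with 8 where MGT + shPtbp1 replicate 2 or MGT + shNT replicate 1 was left out. Fresh cardiomyocytes against fresh fibroblasts called 10755 genes, with a range of 9580 to 11838, and 9 members in every setting. With the replicate number as a block the calls were 4760 and 10713. Deviations of same-numbered libraries correlated at -0.14 to 0.16 across group pairs, so the numbers were not taken as pairs. Of the tested member values, the only reversals were the uncalled Smpd3 difference between fresh cardiomyocytes and fibroblasts, 0.0190 in a fit of 4 libraries and 0.00643 without fresh cardiomyocytes replicate 1, the highest of a range from -0.0655 with 1 replicate left out; the cause was not tested. Of the untested member differences under the alternatives, 118 moved by more than the replicate SD and 542 did not. Ccdc3, low in the control, ran from 1.85 to 2.69 log2 units for MGT against control and from -4.19 to -3.24 for control against fresh fibroblasts, with the smallest sizes at a pseudocount of 2. Abi3bp, control against fresh fibroblasts, ran from -0.11 to 0.04 and kept its sign in 8 of 11 alternatives. With 2 libraries per group, small differences between groups cannot be resolved.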
